A study of Rattus norvegicus with 20 samples.

Results

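The mitochondrial respiratory chain passes electrons from NADH and succinate to oxygen through complexes I to IV, and complex V, the ATP synthase, uses the resulting proton gradient to make ATP. Complex I is NADH dehydrogenase, complex II is succinate dehydrogenase, complex III is the cytochrome bc1 complex and complex IV is cytochrome c oxidase. Most subunits are encoded in the nucleus, and neurons are among the cells that depend most on this route to ATP. The genes described here are the protein coding rows whose symbol starts with Nduf, Sdh (Sdha to Sdhd), Uqcr, Atp5, Cox4i, Cox5, Cox6, Cox7 or Cox8, with the row of highest mean level kept where a symbol was repeated. The rule took 88 of 22075 protein coding genes listed, from 91 matching rows.

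The genes were measured by RNA-seq in 20 libraries from 4 wild-type adult female Long-Evans rats of about 6 to 8 months. All animals carried a cervical hemicontusion of 0.7 mm displacement at level 4 and an electrode array implanted into motor cortex 2 weeks later. The movement threshold was tested 1 week after the implant. In 2 stimulated animals the cortex was then driven at 10 Hz for 5 h a day, in cycles of 5 min on and 2 min off. Stimulation was at 80% of movement threshold for 1 week, given as 5 days in the methods of the paper. The 2 control animals were connected without current. Tissue was collected once the stimulation period had ended. Each animal gave 5 blocks, so that each region had 4 libraries and each arm 2 libraries per region. Region 1 was subcortical white matter under the implant, region 2 the same site on the other side, region 3 the cord rostral to the lesion, region 4 the lesion and region 5 the cord caudal to it, whose levels the labels and the design text give differently. Because no uninjured or unimplanted animal was included, each comparison is within injured rats. Levels are in FPKM, read fragments scaled to transcript length and library size, and a difference was called when the Benjamini-Hochberg adjusted p of the limma fit over all 15210 genes kept was under 0.05.

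Markers of other cell types differed between the blocks. The blocks labelled white matter held cortical projection neuron RNA, with 5 marker genes summing to 345 to 509 FPKM against 1.86 to 15.5 FPKM in the cord. Their 7 oligodendrocyte markers summed to 716 to 2970 FPKM, below the 7441 to 10806 FPKM of the cord. The region 2 library of stimulated animal 2 stood apart, with 287 FPKM of summed microglia and macrophage markers against 54.1 to 62.7 FPKM in the other region 2 libraries. Since the blocks are bulk tissue, fewer cells of a type and less RNA per cell cannot be told apart.

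Of the 88 genes, 82 reached 1 FPKM in any library and were tested: 31 of 33 complex I genes, 4 of 4 complex II genes, 7 of 7 complex III genes, 17 of 20 complex IV genes, 14 of 15 complex V genes and 9 of 9 assembly and associated genes. Ndufa4 and Ndufa4l2 were placed in complex IV, where Ndufa4 is now assigned, and the Ndufaf genes, Atp5s and Atp5sl were kept apart from the subunits. Expression was high and broad, with 77 genes at 1 FPKM or more in every library and 67 at 10 FPKM or more. Atp5f1, Ndufa1, Cox6c1 and Cox8c were listed at 0.1 FPKM, the lowest value in the table, in every library, although Atp5f1 and Ndufa1 encode subunits that every functional enzyme holds. Cox7b2 reached at most 0.253 FPKM and Ndufb4l1 at most 0.354 FPKM. Cox6b1 and Ndufa13 each had a second row, at a mean of 56.6 and 2.24 FPKM, so that reads of near-identical copies could have been split.

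Many promoters of these genes are known to carry sites for NRF-1, for ETS factors such as GABP, and for YY1. Promoters of 300 bases, from 250 before to 50 after the start, were matched by symbol or synonym in RefSeq (GRCr8) for 76 of the 88 genes. The letters GCGCA and GCGC with 1 base of any kind between them (NRF-1), CCGGAAG (ETS) and AAGATGGC (YY1) were searched on both strands. The ETS letters end with the AAG that opens the YY1 letters, so matches of these motifs can overlap. The NRF-1 letters were in 13 of 76 promoters (17.1%) against 4.25% of all 33469 promoters, the ETS letters in 21 (27.6%) against 8.75%, and the YY1 letters in 14 (18.4%) against 3.17%. Any of the 3 motifs was found in 40 promoters (52.6%), against 14.6% of all promoters. The set of all promoters was not limited to expressed genes or to genes with a single promoter. Whether other broadly expressed genes hold these motifs as often was not tested. By complex, 15 of 29 promoters of complex I genes, 4 of 4 of complex II, 4 of 6 of complex III, 5 of 16 of complex IV and 9 of 14 of complex V held a match, and no complex IV promoter held the NRF-1 letters.

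The promoters that follow are 250 bases each, from 220 before to 30 after the start, 5′ to 3′ on the strand of the gene, for common subunits with a match and for 2 rare isoforms without one. They were chosen as examples, and other genes depart from this split. Common subunits such as Atp5b, Ndufc2, Uqcr10 and Ndufa4 held no match, and the rare isoform Ndufa4l2 held the YY1 letters. Capitals mark the matches. Atp5i, listed in RefSeq as Atp5me, held all 3 motifs (chr14:1464640-1464889, plus strand). Sdha held the NRF-1 letters 3 times (chr1:30764333-30764582, plus strand), Atp5g3, or Atp5mc3, held them once (chr3:79220635-79220884, minus strand), and Cox5b held the ETS letters (chr9:46417617-46417866, plus strand). Cox6a2 (chr1:192219687-192219936, minus strand) and Cox6b2 (chr1:78122651-78122900, plus strand) held none in this window.
Atp5i: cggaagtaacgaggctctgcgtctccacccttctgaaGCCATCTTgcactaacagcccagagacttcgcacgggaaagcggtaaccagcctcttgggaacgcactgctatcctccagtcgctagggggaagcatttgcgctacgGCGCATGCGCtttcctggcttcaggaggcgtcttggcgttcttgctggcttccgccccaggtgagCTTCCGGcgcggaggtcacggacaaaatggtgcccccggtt
Sdha: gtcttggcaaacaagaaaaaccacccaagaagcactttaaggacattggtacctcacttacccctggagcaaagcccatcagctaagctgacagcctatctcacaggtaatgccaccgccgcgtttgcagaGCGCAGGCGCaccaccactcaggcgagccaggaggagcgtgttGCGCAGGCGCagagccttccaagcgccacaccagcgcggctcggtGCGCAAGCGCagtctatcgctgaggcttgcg
Atp5g3: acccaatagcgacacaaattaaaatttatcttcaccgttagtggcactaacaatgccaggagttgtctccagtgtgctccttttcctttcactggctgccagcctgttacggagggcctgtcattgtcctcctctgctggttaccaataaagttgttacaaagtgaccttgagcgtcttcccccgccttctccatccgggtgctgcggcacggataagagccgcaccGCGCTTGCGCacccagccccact
Cox5b: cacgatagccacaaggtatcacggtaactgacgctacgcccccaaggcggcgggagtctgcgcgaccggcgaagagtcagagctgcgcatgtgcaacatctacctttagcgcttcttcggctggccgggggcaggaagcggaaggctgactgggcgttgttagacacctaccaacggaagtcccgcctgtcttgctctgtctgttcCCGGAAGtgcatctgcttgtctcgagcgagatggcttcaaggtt
Cox6a2: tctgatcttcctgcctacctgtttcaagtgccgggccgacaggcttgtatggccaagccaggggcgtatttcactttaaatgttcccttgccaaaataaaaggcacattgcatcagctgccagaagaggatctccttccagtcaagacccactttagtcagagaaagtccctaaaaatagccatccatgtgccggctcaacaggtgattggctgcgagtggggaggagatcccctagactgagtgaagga
Cox6b2: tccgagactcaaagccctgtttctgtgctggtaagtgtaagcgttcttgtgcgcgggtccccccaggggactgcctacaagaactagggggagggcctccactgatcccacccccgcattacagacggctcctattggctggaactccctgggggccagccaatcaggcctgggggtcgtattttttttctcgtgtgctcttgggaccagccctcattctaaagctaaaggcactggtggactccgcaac

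The most abundant genes over the 20 libraries were Atp5b (mean 382 FPKM) and Atp5i (304) in complex V and Cox6c (328) and Cox4i1 (279) in complex IV. The leading genes of the other complexes were Uqcrh (117) and Uqcr10 (84.2) in complex III, Ndufb9 (110) and Ndufc2 (96.2) in complex I and Sdha (89.4) and Sdhc (73.4) in complex II. Assembly factors were lower, led by Ndufaf5 (13.7) and Ndufaf7 (10.6). The 13 mitochondrially encoded subunits and Cox7a1 were not analysed here.

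The lesion held the lowest mean levels of the cord. The 82 genes together made up 3.19% ± 0.196 (SD, n = 4) of all FPKM in region 3, 2.67% ± 0.0917 in region 4 and 3.00% ± 0.0527 in region 5, and 2.83% ± 0.142 in region 1 and 3.02% ± 0.150 in region 2. On the log2 scale, the mean level of the 31 complex I genes was 5.83 ± 0.13 in region 3, 5.58 ± 0.17 in region 4 and 5.91 ± 0.06 in region 5 (SD, n = 4). By the mean of the 2 animals of an arm, the lesion was the lowest cord region for each of the 5 complexes, 10 of 10 pairs of complex and arm. In stimulated animal 1 alone it was the lowest for complexes I and V only. There its level was 6.41 for complex II against 6.39 in regions 3 and 5. It was 5.89 for complex III against 5.86 in region 5, and 5.48 for complex IV against 5.42 in region 3. Gene by gene, 79 of 82 had their lowest mean log2 level of the cord in region 4, and 66 of 82 their highest level of all 5 regions in region 5. How many of all genes did so was not counted. All genes were shifted too, with a median log2 difference of -0.14 for region 4 minus region 5 and -0.11 for region 3 minus region 5. It was 0.02 for region 3 minus region 4 and -0.18 for white matter minus cord. By share of all FPKM the mean was highest in region 3.

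**Figure D1:**
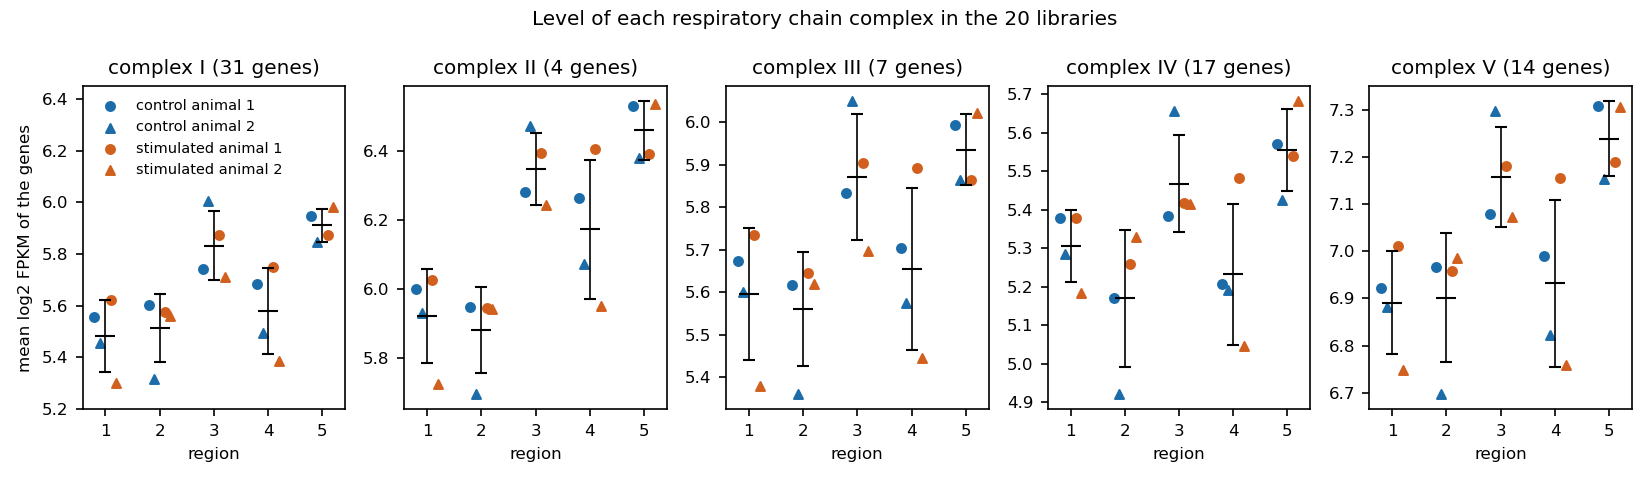
Mean log2 FPKM of the genes of each complex (y axis) by region (x axis), 1 point per library, blue for control and orange for stimulated animals, with the region mean and SD (n = 4) in black. For each complex the region 4 mean lies below those of regions 3 and 5, and the region 4 libraries of stimulated animal 1 lie highest.

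The comparison of the rostral cord with the lesion asked how the tissue at the injury differed from cord on the motor cortex side of it. Respiratory chain genes were lower at the lesion, with a median log2 difference of 0.24 (region 3 minus region 4), while the median of all 15210 genes was 0.02 higher in region 3. Of the 82 genes, 17 were called higher in region 3 than in region 4 and 0 lower (51 at an unadjusted p under 0.05, all higher, against 34.7% of all genes in either direction), where 12.8% of all genes were called higher and 6.78% lower. The log2 difference was positive in 79 of 82 genes, against 53% of all genes. The called genes were 5 of 31 in complex I, 0 of 4 in complex II, 0 of 7 in complex III, 6 of 17 in complex IV, 3 of 14 in complex V and 3 of 9 among assembly and associated genes. With the animal as a block, since each animal gave both blocks of tissue, 26 genes were called. The shares of all genes given above are from the fit without a block.

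Ndufb8, an accessory subunit of complex I chosen here as the gene with the smallest adjusted p after its values were seen, fell from 116 ± 12.7 FPKM in region 3 to 87.9 ± 8.56 FPKM in region 4 (SD, n = 4, log2 difference 0.40, SE 0.09, adjusted p = 0.0052). Ndufa8, another accessory subunit of complex I, stood at 91.0, 103, 105 and 87.9 FPKM in region 3 (control 1, control 2, stimulated 1, stimulated 2) and at 74.0, 64.2, 81.7 and 67.5 FPKM in region 4. The lowest rostral library was above the highest lesion library, and the log2 difference was 0.43 (SE 0.11, adjusted p = 0.0109). Atp5g3, one of 3 genes for the c subunit of the rotor of complex V, stood at 167, 214, 184 and 175 FPKM rostral to the lesion and at 145, 133, 179 and 123 FPKM in it. These groups overlapped through stimulated animal 1, whose lesion value was above the rostral value of control animal 1 (log2 difference 0.36, SE 0.11, adjusted p = 0.0306).

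The 3 rotor genes encode the same mature protein with different import sequences. Atp5g1 was also called higher in region 3 (log2 difference 0.33, SE 0.11, adjusted p = 0.0452), whereas Atp5g2 was at 117 ± 9.18 FPKM in region 3 and 118 ± 17.8 FPKM in region 4 (adjusted p = 0.973). Over the alternative fits the Atp5g1 call held in 5 and was lost in 6, and that of Atp5g3 held in 7 and was lost in 4. Atp5g2 made up 35.3% ± 1.44 of the FPKM of the 3 genes at the lesion, and its share ranged from 34.2% to 37.2% there, above the 27.5% to 32.2% of region 3 and the 30.7% to 32.9% of region 5. Whether the 3 genes differed from each other was not tested. Among the most abundant subunits, Atp5b, the catalytic beta subunit of complex V, was at 406 ± 39.3 FPKM in region 3 and 328 ± 41.5 FPKM in region 4 (adjusted p = 0.0583), and Cox4i1, a core nuclear subunit of complex IV, at 296 ± 23.8 and 246 ± 36.3 FPKM (adjusted p = 0.0766). The log2 differences of the 4 complex II genes were 0.33 (Sdha), 0.12 (Sdhb), 0.11 (Sdhc) and 0.14 (Sdhd), and none was called. Sdha, the flavoprotein subunit, was called with the animal as a block (adjusted p = 0.0293).

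Among assembly factors of complex I, Ndufaf2 fell from 6.26 ± 0.660 to 4.76 ± 0.524 FPKM (adjusted p = 0.0211), Ndufaf5 from 15.8 ± 1.21 to 12.2 ± 2.29 FPKM (adjusted p = 0.0259) and Ndufaf6 from 4.02 ± 0.199 to 3.17 ± 0.433 FPKM (adjusted p = 0.0283) at the lesion. In 9 of 82 genes the 4 rostral libraries all lay above the 4 lesion libraries, where 15.7% of all genes did. The call depended on single animals: without control animal 1 it held for 1 gene, without control animal 2 for 0, without stimulated animal 1 for 6 and without stimulated animal 2 for 14. Scaling each library to its upper quartile raised the count to 53 and quantile normalization to 54, both in the same direction. These counts cannot be set against the shares of all genes called above, which are from the fit without rescaling.

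**Figure D2:**
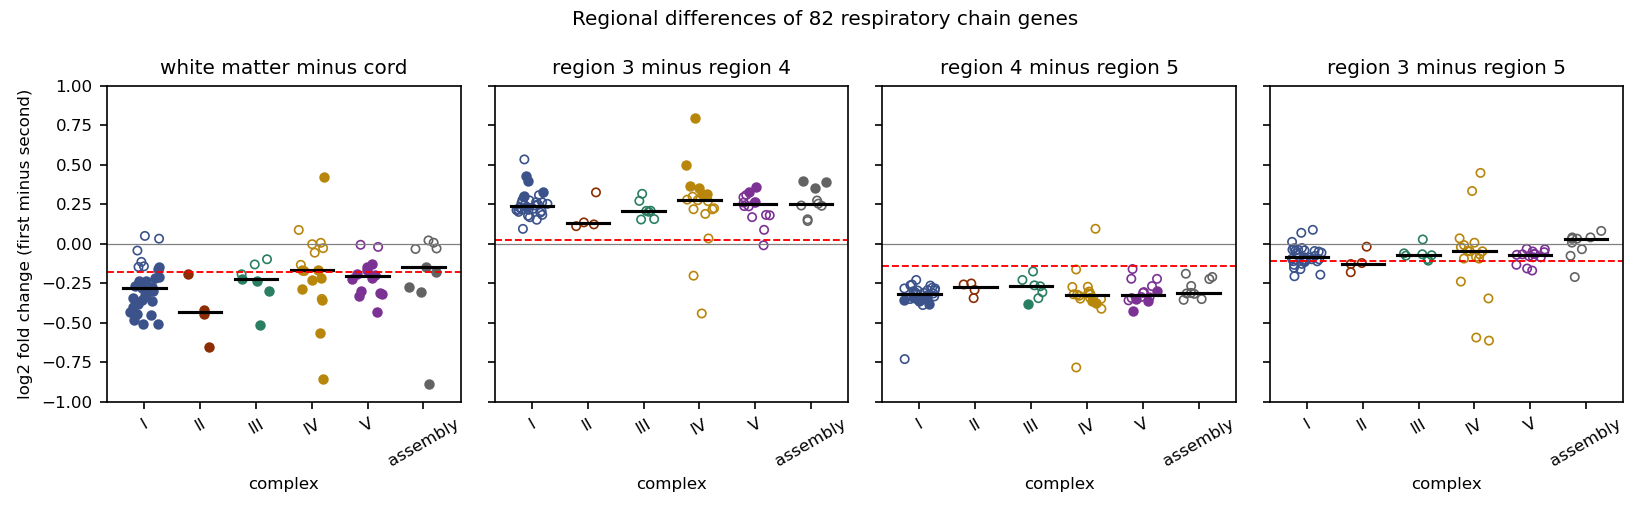
Log2 fold change (y axis) of each of 82 genes by complex (x axis) in 4 regional comparisons, filled where the adjusted p was under 0.05, with the median of each complex in black and the median of all genes as a red dashed line. In region 3 minus region 4 the medians of the 5 complexes lie between 0.13 and 0.28, above that of all genes at 0.02.

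Respiratory chain genes were lower in region 4 than in region 5 by a median log2 difference of -0.32, but the median of all genes was itself -0.14. Of 82 genes, 15 were called lower and 0 higher (72 and 0 at an unadjusted p under 0.05, which 29% of all genes met in either direction), where 7.06% of all genes were called lower and 0.934% higher. The sign was negative in 81 of 82 genes, against 72.8% of all genes, and in 32 of 82 the lesion libraries all lay below the caudal ones, where 16.3% of all genes did. The called genes were 8 of 31 in complex I, 0 of 4 in complex II, 1 of 7 in complex III, 2 of 17 in complex IV, 4 of 14 in complex V and 0 of 9 assembly and associated genes. With the animal as a block 39 were called. Upper-quartile scaling removed the shift of all genes (median 0.02) and left a median of -0.16 and 6 calls, and quantile normalization left 1 call. The shares of all genes called are from the fit without a block or rescaling.

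Atp5g3 was at 204, 181, 186 and 201 FPKM in region 5, above all 4 lesion libraries (log2 difference -0.42, SE 0.11, adjusted p = 0.0322). Uqcrc1, a core protein of complex III, was at 68.6, 59.6, 77.5 and 56.2 FPKM at the lesion and at 89.2, 79.6, 84.4 and 86.0 FPKM caudal to it (log2 difference -0.38, SE 0.11, adjusted p = 0.0441). Its groups did not overlap. Ndufs8, an iron-sulfur subunit of complex I, was at 43.0, 34.5, 47.3 and 33.0 FPKM at the lesion and at 54.1, 45.7, 49.5 and 54.3 FPKM caudal to it, and the lesion value of stimulated animal 1 exceeded the caudal value of control animal 2 (log2 difference -0.38, SE 0.11, adjusted p = 0.0441). Ndufb8 was lower in region 4 than in region 5 as well (log2 difference -0.33, SE 0.09, adjusted p = 0.0374). Leaving out stimulated animal 1 gave 26 calls, and leaving out control 1, control 2 or stimulated 2 gave 0, 0 and 1. Over the alternative fits the Uqcrc1 call held in 4 and was lost in 7. That of Ndufs8 held in 5 and was lost in 6, and that of Atp5g3 held in 6 and was lost in 5.

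Between the rostral and caudal cord no direction held in every animal. None of 82 genes was called between regions 3 and 5 by limma (4 at an unadjusted p under 0.05, against 24.7% of all genes), where 4.32% of all genes were called. The median was -0.07, against -0.11 for all genes, and it turned to 0.05 under upper-quartile scaling and 0.09 under quantile normalization, with 1 and 3 genes called higher in region 3. The animals also differed in sign, from a median of -0.25 in stimulated animal 2 to 0.16 in control animal 2. With the animal as a block 1 gene was called, Cox6a2 (log2 difference -0.61, adjusted p = 0.0122).

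Within each animal, the lesion block had the lower median of each pair. The median log2 difference of region 3 minus region 4 was 0.12 in control animal 1, 0.49 in control animal 2, 0.04 in stimulated animal 1 and 0.33 in stimulated animal 2, with 65, 80, 55 and 82 of the 82 genes positive. These counts are of deposited values, not corrected for shifts of a whole library. The share of all genes in the same animal is not given beside them. For region 4 minus region 5 it was -0.31, -0.33, -0.05 and -0.58 in the same order. Stimulated animal 1 had the smallest difference on both sides of the lesion. After upper-quartile scaling the 4 animals lay closer together, from 0.14 to 0.32 for region 3 minus region 4 and from -0.20 to -0.09 for region 4 minus region 5.

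**Figure D3:**
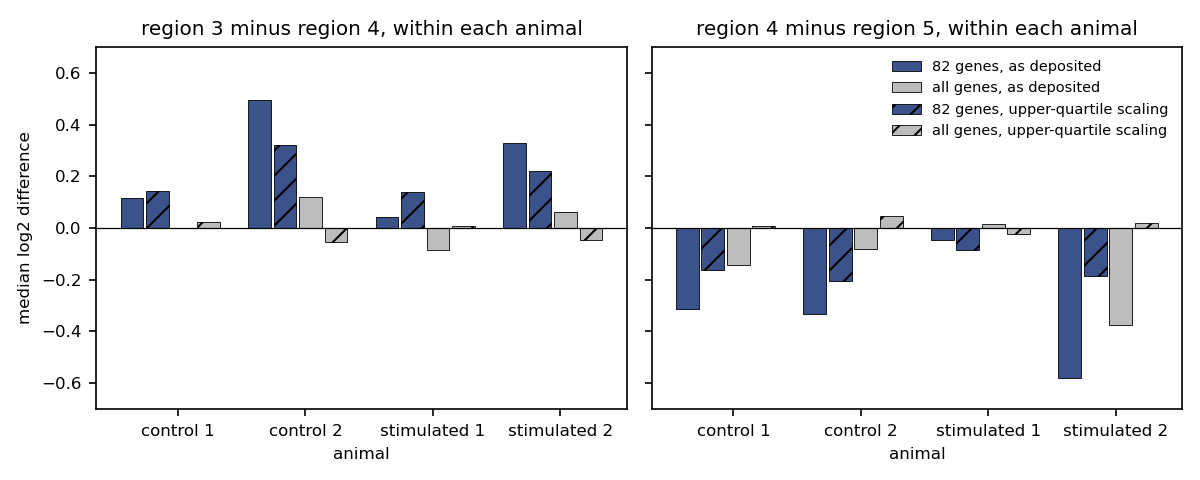
Median log2 difference (y axis) between neighbouring cord regions within each of the 4 animals (x axis), for the 82 genes (blue) and all genes (grey), as deposited (plain bars) and after upper-quartile scaling (hatched bars). The blue bars are positive for region 3 minus region 4 and negative for region 4 minus region 5 in each animal.

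Cell type markers moved between these blocks too. Of 10 neuron markers, 6 were called higher in region 3 than in region 4 and 6 lower in region 4 than in region 5, with summed levels of 1629 to 1948 FPKM in region 3, 1236 to 1565 FPKM in region 4 and 2023 to 2187 FPKM in region 5. Of 9 microglia and macrophage markers, 5 were called lower in region 3, with summed levels of 155 to 247, 425 to 1051 and 440 to 521 FPKM in the same order. All 5 Schwann cell markers were lower in region 3 than at the lesion (14.0 to 64.6 against 79.2 to 118 FPKM), and none of the neuron, microglia or Schwann cell markers was at 0.1 FPKM in every library of these regions. The 7 oligodendrocyte markers had 0 calls of 7 between regions 3 and 4 (7441 to 9066 against 7731 to 8805 FPKM). The 7 astrocyte markers summed to 1514 to 1953 FPKM in region 3 and 2229 to 2979 FPKM in region 4, without overlap, although 1 of them was called higher in region 3 and 0 lower. The part of these shifts in the lower respiratory chain levels was not tested.

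Other genes of energy metabolism gave similar medians. Of 16 tricarboxylic acid cycle genes tested, 3 were called higher in region 3 than region 4 and 0 lower, with a median log2 difference of 0.22, among them Sucla2 (0.39) and Idh3a (0.38). Of 17 glycolysis genes 6 were called higher and 1 lower (median 0.26), and the gene that was lower in region 3, Hk3 (-3.99), is the hexokinase of blood and myeloid cells. Among 7 carriers of ATP and metabolites tested, 3 were higher and 0 lower (median 0.27), including Ckmt1b, a mitochondrial creatine kinase (0.68), and Slc25a4, an ADP/ATP carrier (0.35). Cycs, the somatic cytochrome c that shuttles electrons from complex III to IV, was higher in region 3 as well (0.41, SE 0.11, adjusted p = 0.0122). The 72 mitochondrial ribosomal protein genes tested had a median of 0.15 (3 called higher, 0 lower), 38 proteasome genes 0.09 (3 higher, 0 lower) and 89 cytosolic ribosomal protein genes -0.16 (3 higher, 2 lower). These 3 lists were chosen after the other values were seen.

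Of 15 regulators of mitochondrial biogenesis tested, Esrra, a nuclear receptor that acts with PGC-1 coactivators on respiratory genes, was higher in region 3 than in region 4 (log2 difference 0.34, SE 0.10, adjusted p = 0.0288) and lower in region 4 than in region 5 (-0.36, adjusted p = 0.0434). Sp1, a general factor at GC-rich promoters, was lower in region 3 than in region 4 (-0.35, adjusted p = 0.0416). Ppargc1a, the gene for PGC-1 alpha, differed by 0.44 (SE 0.16, adjusted p = 0.0535), Nrf1 by -0.29 (adjusted p = 0.068), Gabpa by -0.30 (adjusted p = 0.069) and Yy1 by -0.06 (adjusted p = 0.721), none of which passed the test. The 39 tested genes with any of the 3 promoter motifs had a median region 3 minus region 4 difference of 0.24, and the 32 without had 0.22.

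White matter and cord compared different tissues. Respiratory chain genes were lower in regions 1 and 2 by a median log2 difference of -0.23, close to the -0.18 of all genes. Of 82 genes, 58 were called lower and 1 higher (72.0% in either direction against 72.2% of all genes), where 47.1% of all genes were called lower and 25% higher, and 75 of 82 had a negative sign, against 62.6% of all genes. The share of all FPKM taken by the 82 genes was 2.92% ± 0.169 for the 8 white matter libraries and 2.95% ± 0.250 for the 12 cord libraries (SD), a difference smaller than the spread between libraries. The share of complex IV was 0.951% ± 0.0573 in white matter and 0.898% ± 0.0832 in the cord, a difference within the spread, and the white matter of region 1 (0.918%) lay under the cord of region 3 (0.978%). Under upper-quartile scaling 49 genes were called lower and 4 higher, and under quantile normalization 40 and 9. The shares of all genes called are from the fit without rescaling.

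The median log2 differences by complex were -0.28 (complex I), -0.43 (II), -0.23 (III), -0.16 (IV) and -0.21 (V), and whether the complexes differed was not tested. All 4 complex II genes were called lower, 25 of 31 in complex I, 4 of 7 in complex III, 8 of 17 in complex IV, 12 of 14 in complex V and 5 of 9 among assembly and associated genes. Sdha, the weakest of the complex II calls (log2 difference -0.19, adjusted p = 0.0262), was lost without control animal 2 (adjusted p = 0.0704), without stimulated animal 1 (adjusted p = 0.0724), under upper-quartile scaling (-0.11, adjusted p = 0.0545) and under quantile normalization (-0.05, adjusted p = 0.379). Sdhc, a membrane anchor of complex II, ranged from 44.7 to 59.6 FPKM in the 8 white matter libraries (mean 54.6 ± 4.87) and from 66.7 to 103 FPKM in the 12 cord libraries (mean 86.0 ± 10.4). The groups did not overlap, and the log2 difference was -0.65 (SE 0.07, adjusted p = 3.72e-08). Uqcrh, the hinge protein of complex III, was at 93.0 ± 7.70 against 133 ± 16.2 FPKM (log2 difference -0.51, adjusted p = 7.11e-07). Ndufaf2 showed the largest log2 difference of the 82 genes, from 3.04 ± 0.370 in white matter to 5.64 ± 0.815 FPKM in the cord (-0.89, SE 0.07, adjusted p = 2.34e-09), and its groups did not overlap either. Non-overlap in this direction held for 4 of 82 genes and for 16.8% of all genes.

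Several abundant subunits were not called between the tissues and had nearly equal means. Atp5b was at 379 ± 36.1 and 383 ± 51.6 FPKM (adjusted p = 0.941), Cox6a1 at 259 ± 23.3 and 261 ± 34 FPKM (adjusted p = 0.977), Cox7a2 at 139 ± 14.2 and 139 ± 18.5 FPKM (adjusted p = 0.941) and Ndufa4 at 104 ± 11.6 and 106 ± 15.9 FPKM (adjusted p = 0.75). By contrast Atp5i, the e subunit of complex V, was at 251 ± 17.5 against 340 ± 45.7 FPKM (log2 difference -0.43, SE 0.07, adjusted p = 1.33e-05), and Ndufb7, an accessory subunit of complex I, at 51.4 ± 3.31 against 73.8 ± 10.3 FPKM (-0.51, adjusted p = 1.35e-06). Among the genes around the chain, Etfa, which feeds electrons from fatty acid oxidation, differed by -0.95 in white matter minus cord, Ttc19, a factor of complex III, was higher by 0.94, and Ldha, a lactate dehydrogenase subunit, was higher by 1.51, all on the log2 scale. The part of the different cell makeup of these blocks was not tested.

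Complex IV has paralogs for some of its subunits that are known from heart, skeletal muscle, lung or testis. The 5 measured against their common partners were minor here. Over the 20 libraries Cox4i2 stood at 0.356% of Cox4i1, Cox8b at 0.367% of Cox8a, Cox6b2 at 0.986% of Cox6b1, Ndufa4l2 at 1.19% of Ndufa4 and Cox6a2 at 2.03% of Cox6a1, per length. The read counts of single genes behind these low levels are unknown. Skeletal muscle markers were low, summing to 2.73 to 26.5 FPKM over 9 genes, highest in region 3 and lowest in region 5.

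Cox4i2, the form induced by low oxygen, was highest in the rostral cord, at 1.36, 1.63, 1.22 and 1.19 FPKM against 0.602, 0.659, 0.931 and 0.959 FPKM at the lesion. The groups did not overlap and the log2 difference, 0.80, was the largest of the called genes (SE 0.18, adjusted p = 0.00614). Ndufa4l2, a paralog of Ndufa4 that is likewise known from low oxygen, was also higher in region 3, at 1.14, 1.46, 1.31 and 1.27 against 0.905, 0.730, 0.989 and 1.07 FPKM (log2 difference 0.50, SE 0.13, adjusted p = 0.0154). It was the 1 gene called higher in white matter than in cord (0.42, SE 0.09, adjusted p = 2.33e-04). Its level was 1.98, 1.63, 1.77 and 1.78 FPKM under the implant and 1.17, 1.16, 0.987 and 1.28 FPKM on the other side, again without overlap (log2 difference 0.64, SE 0.13, adjusted p = 0.00831).

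Between the implanted and the other hemisphere these were 2 calls of 82, both higher under the implant, where 6.86% of all genes were called higher and 1.76% lower (3 genes at an unadjusted p under 0.05, against 25.2% of all genes). The other was Cox6b2, the form known from testis, at 1.69, 1.44, 1.77 and 1.27 FPKM in region 1 and at 0.519, 0.509, 0.527 and 1.78 FPKM in region 2 (log2 difference 1.12, SE 0.33, adjusted p = 0.0454). The high value in region 2 is the library of stimulated animal 2 that stood apart. Without that library, an alternative chosen after seeing the data, the log2 difference was 1.56 (adjusted p = 0.000139), and with the animal as a block, all libraries kept, its adjusted p was 0.0514. The Cox6b2 call was also lost without control animal 1, control animal 2 or stimulated animal 1 (adjusted p up to 0.412), under log2(FPKM + 1) (log2 difference 0.52, adjusted p = 0.0812), under quantile normalization (0.74, adjusted p = 0.0984), without a filter (adjusted p = 0.118) and without a trend (adjusted p = 0.0515), in 8 of 12 alternatives in all. Ndufa4l2 was uncalled without control animal 1 (adjusted p = 0.119), without stimulated animal 1 (adjusted p = 0.200) and under quantile normalization (adjusted p = 0.0738). The median of the 82 genes between regions 1 and 2 was -0.02, against 0.06 for all genes. Cell type markers differed between these blocks as well. The oligodendrocyte markers summed to 1522 to 2970 FPKM in region 1 and 716 to 1402 FPKM in region 2 (6 of 7 called higher in region 1), and the microglia and macrophage markers to 151 to 439 FPKM in region 1 against 54.1 to 62.7 FPKM in 3 region 2 libraries and 287 FPKM in the other (3 of 9 called higher). Their part in both calls was not tested.

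Cox6a2 and Cox8b, the forms of heart and skeletal muscle, were lower in white matter than in cord. Cox6a2 was at 4.03 ± 1.11 against 6.02 ± 1.84 FPKM (log2 difference -0.57, SE 0.17, adjusted p = 0.0062), and its mean level was highest in region 5 (7.29, 5.19, 7.86 and 9.61 FPKM). Any link to the muscle markers was not tested. Cox8b was at 0.502 ± 0.205 against 0.962 ± 0.515 FPKM (log2 difference -0.86, SE 0.31, adjusted p = 0.0185), a call lost under quantile normalization (-0.53, adjusted p = 0.160) and without stimulated animal 2 (-0.81, adjusted p = 0.0711). It had the largest log2 SD of the complex IV genes over the 20 libraries (0.83). Its levels were most like Wdr35 (Pearson r of log2 FPKM 0.785), Ate1 (0.784) and Sco1 (0.774), over libraries that share animals and regions. Cox8a, its common partner, was at 218 ± 17.0 and 206 ± 25.3 FPKM in the same tissues (adjusted p = 0.244).

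**Figure D4:**
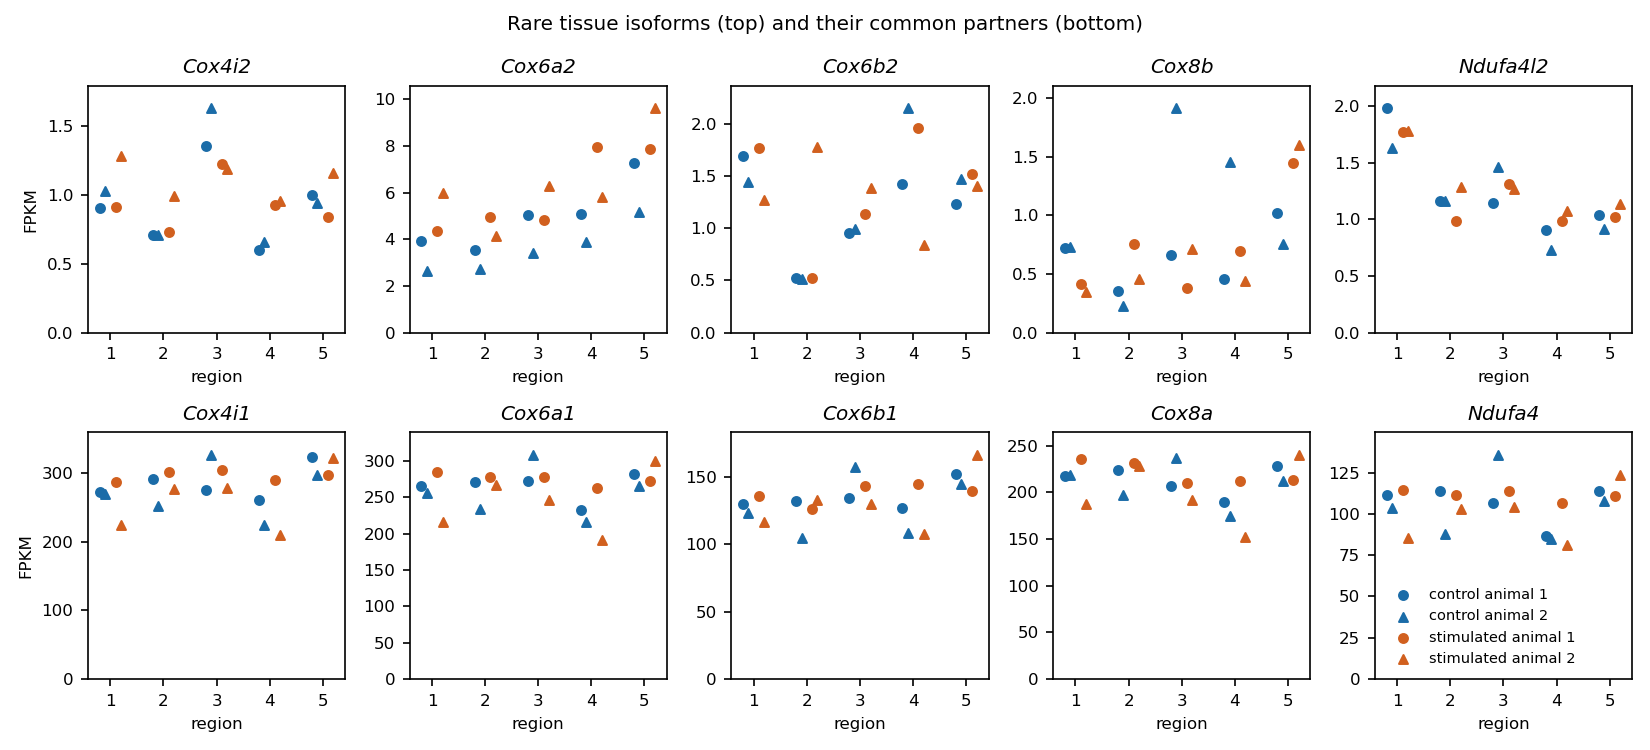
FPKM (y axis, from 0) of 5 minor complex IV isoforms in the top row and of their common partners in the bottom row, by region (x axis), 1 point per library, blue for control and orange for stimulated animals. Cox4i2 peaks in region 3, Ndufa4l2 in region 1 and Cox6a2 in region 5, and 1 region 2 library has 1.78 FPKM of Cox6b2 against at most 0.527 FPKM in the other 3.

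Stimulation against control asked whether a week of motor cortex stimulation altered these genes, with 2 libraries per arm in each region. None of 82 genes was called in any of the 5 regions by limma, and at an unadjusted p under 0.05 there were 1, 0, 0, 2 and 1 genes in regions 1 to 5, where 5.44%, 1.41%, 3.43%, 2.24% and 3.59% of all genes were. Over all genes 0% were called in regions 1 to 4 and 0.0197% in region 5. The median log2 differences of the 82 genes were -0.06, 0.11, -0.07, 0.05 and 0.03 in regions 1 to 5, near the -0.03, 0.08, -0.07, 0.00 and 0.05 of all genes. With upper-quartile scaling they lay between -0.04 and 0.06. Leaving out 1 animal gave at most 1 call in a region. A test of 2 libraries against 2 has little power. In region 1 no gene was called, although log2 differences over all genes ran from -5.88 to 7.04. The lack of calls therefore does not show that changes, small or large, were absent.

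For scale, the mean log2 level of complex I was 5.50 in control and 5.46 in stimulated animals in region 1, 5.46 and 5.57 in region 2, 5.87 and 5.79 in region 3, 5.59 and 5.57 in region 4, and 5.90 and 5.93 in region 5. In region 4 the stimulated libraries lay at 5.75 and 5.39, above and below both control libraries (5.69 and 5.50). The groups did not overlap, with the stimulated pair higher, in 20 of 82 genes in region 2 (20.2% of all genes) and in 1 of 82 in region 3 (5.14%), where 4 of 82 were lower (24.7%). In region 1, 3 of 82 were higher and 1 lower, against 3217 and 2965 of all 15210 genes. Region 4 had 5 higher and 1 lower (1902 and 1170 of all genes), and region 5 had 7 and 2 (2819 and 923).

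Named by their smallest p among genes whose groups did not overlap, minor isoforms filled most places. Cox6a2 was higher in the stimulated pair in region 1 (4.34 and 5.99 against 3.91 and 2.63 FPKM), region 2 (4.94 and 4.14 against 3.56 and 2.74), region 4 (7.97 and 5.82 against 5.07 and 3.88) and region 5 (7.86 and 9.61 against 7.29 and 5.19), and its groups overlapped in region 3 (4.81 and 6.27 against 5.06 and 3.42 FPKM). Its adjusted p was 0.712 or above in each region. Over the 5 regions its mean was 4.98 and 3.57 FPKM in the control animals and 5.98 and 6.37 FPKM in the stimulated animals, and control animal 2 had the lowest value in every region. An exact permutation test of 2 animals against 2 cannot give a two-sided p below 0.333.

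Cox8b went in different directions by region, lower in the stimulated pair in region 1 (0.417 and 0.345 against 0.725 and 0.727 FPKM) and higher in region 5 (1.44 and 1.60 against 1.02 and 0.755 FPKM), with adjusted p of 0.712 and 1. Uqcrfs1, the Rieske iron-sulfur protein of complex III, was lower in the stimulated pair in region 3 (59.5 and 52.3 against 61.6 and 74.7 FPKM) and in region 5 (62 and 62.4 against 72.6 and 68.5 FPKM), with adjusted p of 0.956 and 1. In region 2 Uqcrb, a small subunit of complex III, was at 19.9 and 19.7 against 17.3 and 14.3 FPKM (adjusted p = 0.949). In region 4 Ndufv3-ps1 had the smallest p of the 82 genes, at 0.307 and 0.481 against 2.65 and 1.5 FPKM (unadjusted p = 0.00355, adjusted p = 1 by limma). It was called without control animal 1 (adjusted p = 0.00538) and without control animal 2 (adjusted p = 0.000497), fits in which the lone control library is assumed to vary like the stimulated ones. It is a near copy of Ndufv3, so that reads may be split between them, and its level is uncertain.

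**Figure D5:**
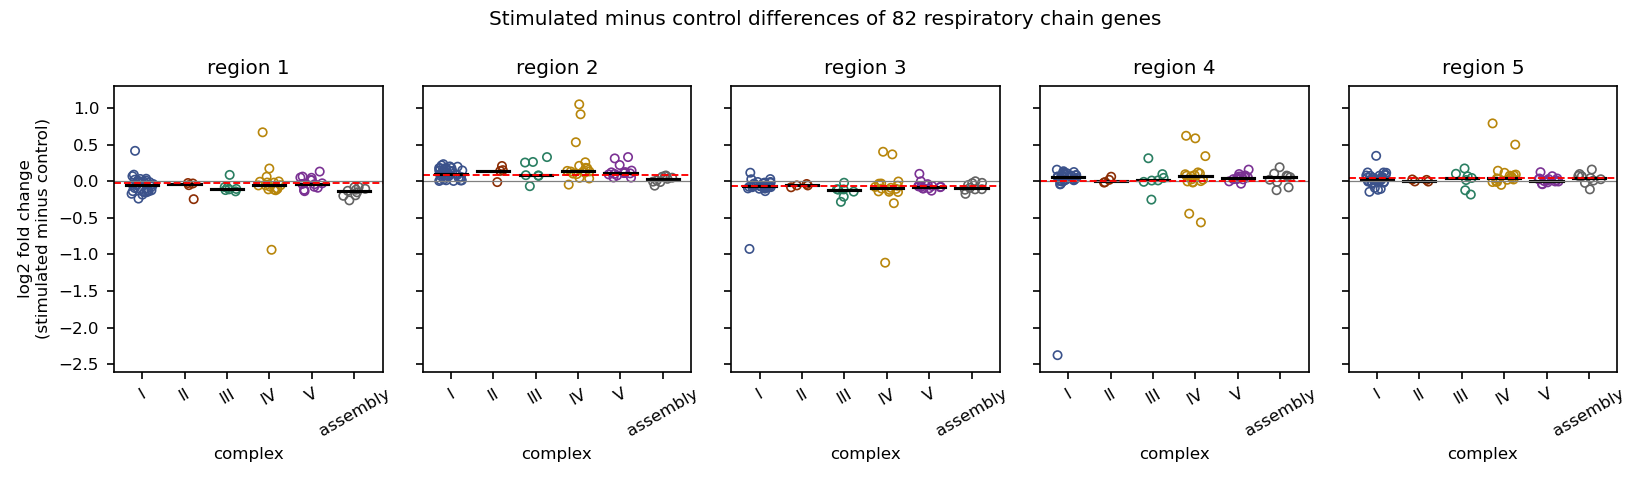
Log2 fold change (y axis) of each of 82 genes in stimulated minus control animals by complex (x axis), 1 panel per region, n = 2 libraries per arm. Black bars are medians of each complex, the red dashed line is the median of all genes, and every point is open because none had an adjusted p under 0.05.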

How the data were processed

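RNA-seq libraries were made from ribosome-depleted, stranded total RNA of 5 tissue blocks from each of 4 rats. The authors aligned reads to Rnor6 with TopHat2 (2.1.0), estimated FPKM with Cufflinks (2.2.1), used FastQC and MultiQC (1.6), and set values under 0.1 to 0.1. The deposited FPKM values were used as they stand. They carry no read counts per gene, so no counting interval is given. The paper lists the read number and mapping rate of each library.

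Of 30443 genes, 15210 reached 1 FPKM in any library and were tested on the log2 FPKM scale with limma (3.58.1, R 4.3.3; lmFit and eBayes with a trend, two-sided, Benjamini-Hochberg threshold 0.05). Regions were compared in 1 model of 20 libraries and stimulation within the 4 libraries of a region. A fold change understates that of genes near 0.1 FPKM. The fits were also run on simulated data with independent libraries and larger changes than most described here. Such data cannot test the effect of libraries that share an animal. Promoters were searched and plots drawn with Python (3.11.15), numpy (2.4.6), pandas (2.3.3) and matplotlib (3.10.9).

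The genes and lists were chosen with earlier results of these data known. Named genes were the 2 most abundant of each complex, the Sdh genes, tissue isoforms, the largest called changes of each regional comparison (1 per complex and direction for white matter against cord, otherwise 3), for stimulation the 3 smallest p among genes whose groups did not overlap, up to 3 (white matter against cord) and 2 (region 3 against 4) called genes of other lists, and the genes most alike to Cox8b. Others were named after their values were seen.

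The 5 blocks of 1 animal are paired, and the animal was a block in an alternative regional fit. Deviations of the same animal correlated by 0.41 to 0.77 between regions 1 and 2, 0.14 to 0.26 between regions 3 and 4 and -0.09 to 0.11 between regions 4 and 5. The 20 libraries of a regional fit come from 4 animals, so its p-values without the block treat libraries as independent. Alternatives were log2(FPKM + 1), no filter, at least 1 FPKM in 4 libraries, scaling to the upper quartile, quantile normalization, no trend in eBayes, each animal left out, blocks, and 1 model of all libraries for stimulation.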

Additional observations from a re-analysis of the deposited data

Results flagged for a closer look

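Of 55 groups of 4 libraries examined, 7 held a library far from the other 3 by Dixon's criterion. Chance meets it in about 1 in 20 independent groups. These groups share libraries, so the count cannot be set against that rate. The region 2 library of control animal 2 was low for complex I (mean log2 FPKM 5.32, median of the 4 libraries 5.57), complex II (5.69 against a median of 5.94), complex III (5.36 against 5.62) and complex V (6.70 against 6.96). Its region 3 library was high for complex IV (5.66 against 5.42). The region 2 library of stimulated animal 2 was high for Cox4i2 (0.991 FPKM, next library 0.729) and for Cox6b2 (1.78 FPKM, next library 0.527), and it was the library that stood apart in microglia and macrophage markers.

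In 4 pairs of regions an isoform moved in opposite directions with stimulation, with no overlap of the arms in either region, and the difference was not tested. For Cox4i2 the stimulated minus control log2 difference was 0.26 in region 2 and -0.30 in region 3, a gap of 0.56. It was 0.59 in region 4, and the gap from region 3 to region 4 was -0.89. For Cox8b it was -0.94 in region 1 against 1.05 in region 2, a gap of -1.99, and 0.79 in region 5, a gap of -1.73.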

How the results depend on the processing

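Of the values for single genes recomputed under the alternatives, 517 kept direction and side of the threshold, 85 lost the call, 3 gained it and 1 reversed, Cox6c in white matter minus cord, at 0.060 under quantile normalization. The counts that follow stand without the share of all genes called under the same alternative. Genes called higher in white matter than in cord numbered 9 under quantile normalization and 4 under upper-quartile scaling. Higher in region 1 than in region 2 there was 1 under log2(FPKM + 1), without a filter and under quantile normalization. The same held without a trend and with the animal as a block. With an animal left out there were 0 to 2, and 1 was lower under quantile normalization and 1 under upper-quartile scaling. Higher in region 3 than in region 4 there were 7 without a filter, 54 under quantile normalization and 53 under upper-quartile scaling. There were 26 with the animal as a block and 0 to 14 with an animal left out, when 0 to 1 was lower. Lower in region 4 than in region 5 there were 2 without a filter, 1 under quantile normalization, 6 under upper-quartile scaling and 9 without a trend. There were 39 with the animal as a block and 0 to 26 with an animal left out. Between regions 3 and 5, 3 were higher under quantile normalization, 1 under upper-quartile scaling and 0 to 1 with an animal left out. With the animal as a block, 1 was lower. For stimulation, 0 to 1 was called in region 2 and in region 4 (Ndufv3-ps1) with an animal left out. The replicate number as a block gave 0 calls in each region. The numbers name different animals in each arm and so do not pair them. The correlation of same-numbered animals was -0.21, -0.10, -0.11, 0.32 and -0.16 in regions 1 to 5, which cannot settle a pairing with 2 animals per arm. A crossed pairing, added after seeing the data, called 1 gene in region 4, Ndufv3-ps1 (adjusted p = 0.000186). The cause of these shifts was not tested, except that without a filter more genes are tested and with an animal left out fewer libraries are used. The lesion was the lowest cord region in 7 to 10 of 10 pairs of complex and arm with an animal left out. Read counts per gene are unknown, which limits the minor isoforms near 1 FPKM.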

Other observations

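Ndufb1, a complex I gene that the table types as a long noncoding RNA, lay outside the rule and had a mean of 57.8 FPKM.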
